A study of Mus musculus with 4 samples.

Results

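The genes described here are 33 genes that build the granules and the superoxide-producing enzyme of neutrophils, chosen by symbol from the 31053 genes of a single-cell RNA dataset of mouse brain tumours. All 33 symbols were found in every library. They comprise 7 primary granule genes (Mpo, Elane, Prtn3, Ctsg, Ms4a3, Fcnb and Bpi), 8 secondary granule genes (Ltf, Camp, Ngp, Lcn2, Cd177, Pglyrp1, Olfm4 and Mmp8) and 3 tertiary granule genes (Mmp9, Mmp25 and Adam8). The others are the integrin chains Itgam and Itgb2, the lysozyme gene Lyz2, 5 genes of the NADPH oxidase (Cyba, Cybb, Ncf1, Ncf4 and Rac2), the receptor genes Fpr1 and Fpr2 with the ligand gene Anxa1, the transcription factor genes Cebpe and Cebpd, and Padi4 and Slpi.

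The libraries hold tumour-infiltrating immune cells of C57BL/6 mice, taken at the symptomatic stage from brain tumours of a genetically engineered glioma model. In 2 libraries the tumours expressed mutant IDH1 (mIDH1) and in 2 they expressed wild-type IDH1 (wtIDH1). Both genotypes share the strain, tissue and stage. The driver of the transgenes, the isolation of the cells, the ages and the number of animals behind a library are not given in the sources used here, so p-values measure only the spread between these libraries.

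Neutrophils make their granules in sequence while they mature in the bone marrow. Myeloblasts and promyelocytes fill the primary granules with myeloperoxidase and serine proteases, myelocytes fill the secondary granules with lactoferrin and cathelicidin, and band cells fill the tertiary granules with gelatinase. Transcription of each set then stops, while the proteins stay stored in the granules of the mature cell. The NADPH oxidase joins a membrane pair, gp91phox (Cybb) and p22phox (Cyba), with cytosolic subunits that include p47phox (Ncf1) and p40phox (Ncf4) and with the small GTPase Rac2, and it turns oxygen into superoxide. It is also used by monocytes, macrophages and B cells.

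The promoters of 4 secondary granule genes are shown. These were the 4 members with over 90% of their pooled UMIs in neutrophil-like cells. Camp, Ngp and Ltf lie within 1195 kb of mouse chromosome 9, where the genes span Camp at chr9:109847379-109849617 (minus strand), Ngp at chr9:110419747-110423012 (plus strand) and Ltf at chr9:111019271-111042767 (plus strand) on mm10. Each sequence runs from 250 bases before to 50 after the start of the gene, 5′ to 3′ on the gene's strand, from RefSeq on GRCm38.p6. The windows are chr9:110419558-110419857 (plus) for Ngp, chr9:109849407-109849706 (minus) for Camp, chr9:111019042-111019341 (plus) for Ltf and chr2:32387690-32387989 (minus) for Lcn2. The RefSeq start lay 61, 161, 21 and 513 bases inside the outermost start that GENCODE gives for Ngp, Camp, Ltf and Lcn2. Capitals mark matches on either strand to TTNNGNAA, a form of the C/EBP motif, in which N is any base.
Ngp: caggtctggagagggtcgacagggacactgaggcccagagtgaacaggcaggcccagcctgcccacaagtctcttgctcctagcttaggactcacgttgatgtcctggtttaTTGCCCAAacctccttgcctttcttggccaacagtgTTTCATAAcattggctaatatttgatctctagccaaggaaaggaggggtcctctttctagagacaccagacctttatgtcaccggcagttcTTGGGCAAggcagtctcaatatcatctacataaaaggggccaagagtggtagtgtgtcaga
Camp: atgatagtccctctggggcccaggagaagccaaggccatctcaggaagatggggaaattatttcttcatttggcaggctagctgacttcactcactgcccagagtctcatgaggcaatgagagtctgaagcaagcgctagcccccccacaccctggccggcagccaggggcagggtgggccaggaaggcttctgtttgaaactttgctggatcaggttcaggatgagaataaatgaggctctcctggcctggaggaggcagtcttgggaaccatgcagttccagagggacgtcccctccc
Ltf: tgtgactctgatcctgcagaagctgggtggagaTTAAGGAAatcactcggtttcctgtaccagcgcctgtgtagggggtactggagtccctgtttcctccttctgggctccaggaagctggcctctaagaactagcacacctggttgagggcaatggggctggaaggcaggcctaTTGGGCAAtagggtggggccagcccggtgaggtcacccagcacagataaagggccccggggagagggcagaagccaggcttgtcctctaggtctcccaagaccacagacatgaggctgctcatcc
Lcn2: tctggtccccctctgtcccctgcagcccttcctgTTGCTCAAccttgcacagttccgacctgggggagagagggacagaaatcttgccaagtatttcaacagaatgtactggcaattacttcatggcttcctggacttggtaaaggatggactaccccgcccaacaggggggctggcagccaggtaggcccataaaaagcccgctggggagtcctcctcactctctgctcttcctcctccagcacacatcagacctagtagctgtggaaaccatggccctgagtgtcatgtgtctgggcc

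The motif had 3 matches in the Ngp window, 2 in that of Ltf, 1 in that of Lcn2 and 0 in that of Camp. It was found in 40.7% of all 32544 promoters of this length and in 15 of the 27 members with a promoter in the table. The PU.1 motif GAGGAA was found in 28.1% of all promoters and in 17 of the 27. A match describes letters in the window and not a bound site.

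After quality filters 13167 cells of 16289 barcodes were kept, 3638 and 3506 in the mIDH1 libraries and 3045 and 2978 in the wtIDH1 libraries. Median depth was 3362.5 and 2699 UMIs per cell in the mIDH1 libraries, against 4955 and 4869 UMIs in the wtIDH1 libraries. Libraries shared 53 barcodes, 47 of them among the kept cells. Of 25 clusters, built with the 33 members left out, 14 were named from marker genes of other kinds, and 4866 cells stayed in unnamed clusters. Neutrophil-like cells numbered 3335. They made up 32.6% (95% exact binomial interval 31.1 to 34.1%) and 51.9% (50.2 to 53.6%) of the mIDH1 libraries, against 3.88% (3.22 to 4.62%) and 7.12% (6.22 to 8.10%) of the wtIDH1 libraries. The neutrophil marker genes S100a8 and Csf3r were read in 93.0% and 78.0% of these cells and the T cell gene Cd3e in 0.5%. S100a8 and Csf3r are on the list that named these cells, so their detection does not test the label. Their median depth was 2057 UMIs, the lowest among the named classes. RNA of other cells was present in them in unequal amounts: C1qa, a macrophage gene, stood at 348 and 83.4 CPM (UMIs of the gene scaled to 1e+06 UMIs of the same cells) in the mIDH1 and at 705 and 652 CPM in the wtIDH1 neutrophil-like cells.

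Marker genes that are no members split the neutrophil-like cells into 4 states. Cells with cell-cycle transcripts formed the precursor state (9 cells), and cells with a high score of Chil3, Ifitm6, Itgb2l and related genes the granule-rich state (71 cells). The others were mature (1558 cells, from Cxcr2, Il1r2 and similar genes) or activated (1697 cells, from Ccl3, Ccl4, Cxcl2, Cd274 and similar genes), by the higher score. Mature cells were 38.7 and 49.1% of the neutrophil-like cells in the mIDH1 libraries, against 61.9 and 62.3% in the wtIDH1 libraries. Activated cells were 59.7 and 48.1% in the mIDH1 libraries and 33.1 and 35.4% in the wtIDH1 libraries. Precursors numbered 6 and 1 in the mIDH1 libraries and 0 and 2 in the wtIDH1 libraries. Granule-rich cells numbered 13 and 49 in the mIDH1 libraries and 6 and 3 in the wtIDH1 libraries. The mature and activated states shade into each other, since 649 of their 3255 cells had scores within 0.25 of equality. Levels below are CPM of the summed cells of a state and are compared only within a gene. In the granule-rich state mIDH1 replicate 2 held 276299 of the 341759 UMIs, so pooled levels of that state lean on this library.

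Transcripts of the secondary granule genes Ngp, Camp and Ltf were concentrated in the precursor and granule-rich states. Ngp, a cathelicidin-related granule protein of mouse neutrophils, stood at 1748 and 15487 CPM in granule-rich cells of the mIDH1 libraries, against 26671 and 48734 CPM in those of the wtIDH1 libraries. In mature cells it stood at 8.17 and 23.9 CPM in the mIDH1 libraries, against 25.8 and 0 CPM in the wtIDH1 libraries. All 4 granule-rich values lay above all 4 mature ones, and over all libraries Ngp had 27404, 15663, 18.1 and 6.44 CPM in precursor, granule-rich, mature and activated cells. Of the 71 granule-rich cells, 17 had 10 or more UMIs of Ngp and Camp together. Another 43 had 0 UMIs of Ngp, Camp and Ltf. The wtIDH1 libraries held 2 and 1 neutrophil-like cells with 10 or more such UMIs, so the granule-rich levels of these genes rest on few cells. Camp, the antimicrobial peptide cathelicidin, ran through the same states at 19813, 10098, 1.41 and 3.64 CPM. Its granule-rich level was 26.5 and 10416 CPM in the mIDH1 libraries and 10978 and 32926 CPM in the wtIDH1 libraries, so mIDH1 replicate 1 stood apart. Ltf, the iron-binding lactoferrin, ran at 5676, 4652, 22.6 and 37.5 CPM, far lower in mature and activated than in granule-rich cells.

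Lcn2, the siderophore-binding lipocalin of secondary granules, differed from those 3 genes in that it went on being read in mature and activated cells. It stood at 12358, 9431, 914 and 343 CPM along the states. In mature cells it had 494 and 1212 CPM in the mIDH1 libraries and 361 and 244 CPM in the wtIDH1 libraries. In activated cells it had 209 and 470.4 CPM in the mIDH1 libraries and 131 and 53.9 CPM in the wtIDH1 libraries, lower than in the mature cells of the same library in all 4. Pglyrp1, which encodes a peptidoglycan-binding protein, followed with 2376, 2203, 475 and 60.7 CPM, and Cd177, a surface antigen of the secondary granule membrane, with 733, 734, 102 and 73.9 CPM. Mmp8, the neutrophil collagenase, was low in the pooled precursors (13.6 CPM), highest in granule-rich cells (1150 CPM), and then stood at 170.1 and 81.5 CPM. By library, Mmp8 was not higher in granule-rich than in mature cells of all 4. Olfm4 had 129 UMIs in all neutrophil-like cells and stood at 2.93, 10.7 and 25.2 CPM in granule-rich, mature and activated cells.

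Tertiary granule genes stayed readable in mature cells. Mmp9, the gelatinase, had 1218 and 1296 CPM in granule-rich cells of the mIDH1 libraries, against 2196 and 2375 CPM in those of the wtIDH1 libraries. In mature cells Mmp9 had 1142 and 843 CPM in the mIDH1 libraries, against 798 and 1618 CPM in the wtIDH1 libraries. In activated cells it had 699.5 and 318 CPM in the mIDH1 libraries and 378 and 485 CPM in the wtIDH1 libraries. The step between granule-rich and mature cells was thus far smaller for Mmp9 than for Ngp, Camp or Ltf. Adam8, a membrane metalloprotease, stood at 81.5, 535 and 532 CPM in precursor, granule-rich and mature cells and at 328 CPM in activated cells. Mmp25, a membrane-anchored metalloprotease, had 38.0, 13.3 and 12.9 CPM in granule-rich, mature and activated cells and 0 UMIs in precursors, where a count of 0 allows up to 40.7 CPM.

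**Figure D1:**
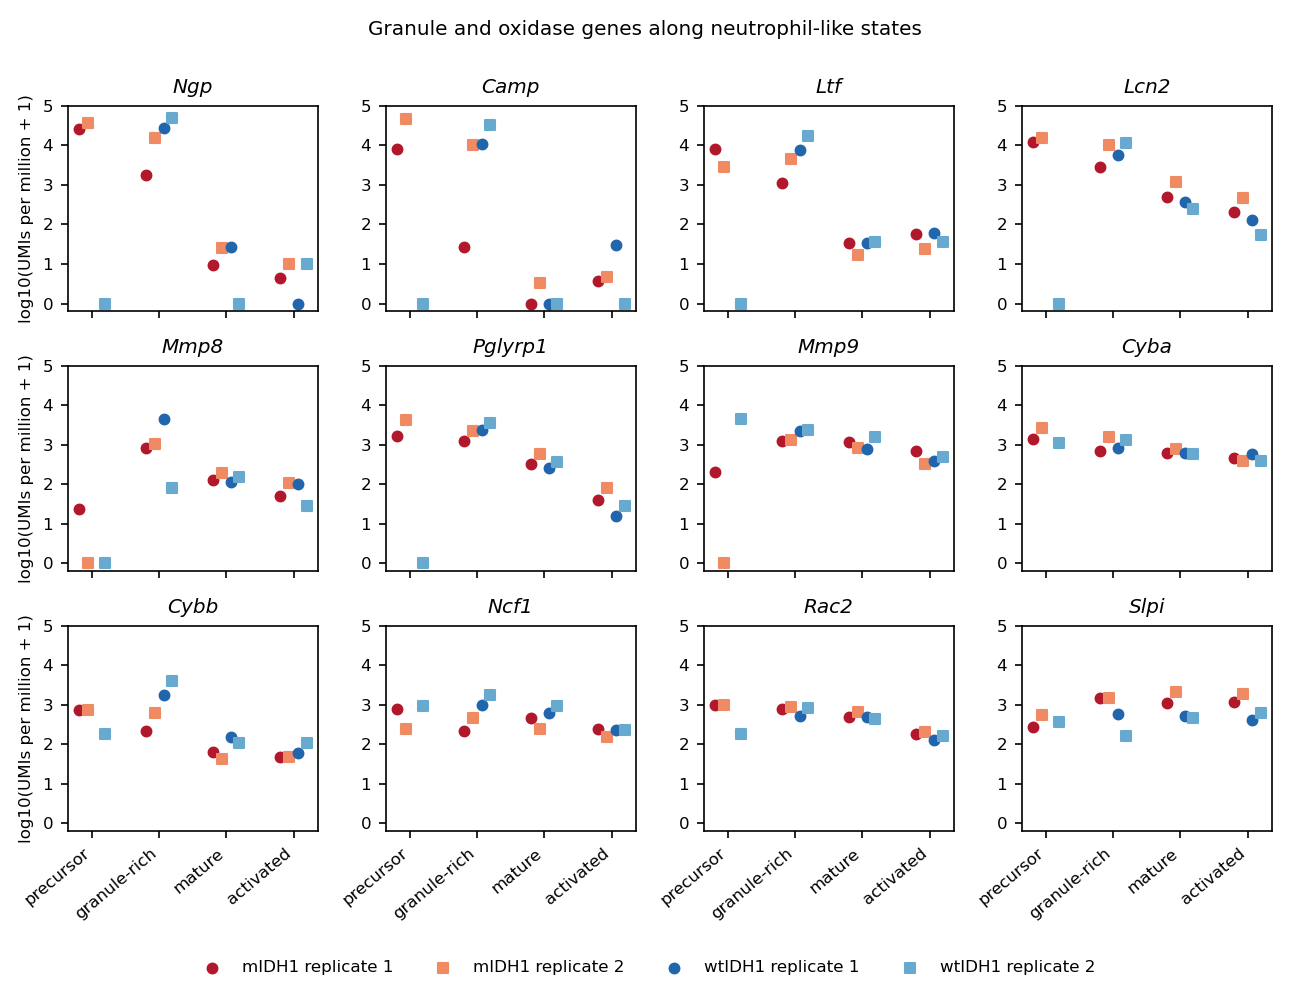
Level of 12 members along the neutrophil states (x axis), as log10 of CPM + 1 (y axis), with 1 point per library, mIDH1 left of wtIDH1. Ngp and Ltf lie higher in granule-rich than in mature cells of all 4 libraries by 1 log10 unit or more, while Cyba, Ncf1 and Rac2 stay within a narrow band. The precursor points stand for 6, 1 and 2 cells.

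The oxidase genes were read in all 4 states. In the pooled cells the levels of Cyba, Ncf1, Ncf4 and Rac2 stepped down at each state. Cyba stood at 1765, 1410.3, 727 and 420.2 CPM in precursor, granule-rich, mature and activated cells, Ncf1 at 611, 509, 368 and 189 CPM, Ncf4 at 285, 255, 215 and 144 CPM, and Rac2 at 937, 863, 582 and 187 CPM. The precursor values rest largely on 2 deep cells of the mIDH1 libraries, which held 49070 of the 73638 precursor UMIs, 111 of the Cyba, 35 of the Ncf1, 17 of the Ncf4 and 53 of the Rac2 UMIs, against 19, 10, 4 and 16 in the other 7 cells. By library, Cyba and Rac2 were higher in granule-rich than in mature cells of all 4, and Ncf1 and Ncf4 were not. The step was steeper for Cybb than for the other subunit genes, with 693 and 737 CPM in precursor and granule-rich cells but 56.8 and 47.6 CPM in mature and activated ones. By library, Cybb had 212 and 608 CPM in granule-rich cells of the mIDH1 libraries, against 1744 and 4013 CPM in those of the wtIDH1 libraries. In mature cells it had 64.4 and 41.8 CPM in the mIDH1 libraries, against 148 and 104 CPM in the wtIDH1 libraries. Cells with 10 or more Ngp and Camp UMIs numbered 2 and 15 in mIDH1 and 2 and 1 in wtIDH1. They had 1082 and 972 CPM of Cybb in mIDH1 and 2872 and 5440 CPM in wtIDH1. The other neutrophil-like cells had 54.1 and 44.6 CPM in mIDH1 and 121 and 109 CPM in wtIDH1. The granule-rich Cybb levels of the wtIDH1 libraries therefore rest largely on 2 and 1 cells. Macrophage-like cells held Cybb at 993 and 947 CPM in the mIDH1 libraries and at 800.2 and 828 CPM in the wtIDH1 libraries, above the mature neutrophil level in every library. The part of RNA of other cells in the Cybb levels of the states was not tested. Rac2 differed most between the last states among these genes: it had 501 and 641 CPM in mature cells of the mIDH1 libraries and 476 and 444 CPM in those of the wtIDH1 libraries, against 178 and 198 CPM in activated cells of the mIDH1 and 131 and 162 CPM in those of the wtIDH1 libraries.

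The other members took several courses. Anxa1, whose product annexin A1 is a ligand of formyl peptide receptors, stepped down at each state in the pooled cells (1969, 1364, 192 and 40.3 CPM). Its receptor gene Fpr2 stood at 394, 495, 366 and 257 CPM along the states, and Fpr1 stood at 114, 139 and 91.5 CPM in the last 3 states. Fpr2 overlaps Fpr3 on the same strand, a near copy, so its counts are uncertain. Lyz2, the lysozyme gene of myeloid cells, had 3599, 2525, 309 and 262 CPM. In macrophage-like cells Lyz2 stood at 2870 and 4697% of the neutrophil-like level in the mIDH1 and 767 and 920% in the wtIDH1 libraries. The part of RNA of other cells in its levels by state was not tested. Cebpe, the transcription factor needed for secondary granule formation, had 367, 87.8, 13.9 and 9.24 CPM. Cebpd stayed at 217 to 278 CPM up to the mature state and stood at 73.6 CPM in activated cells. Itgam, the integrin alpha M chain, stayed nearly level, with 367, 527, 572 and 579 CPM, and its partner chain Itgb2 had 244, 316, 252 and 134 CPM. Padi4, which encodes a histone-citrullinating enzyme, had 95.1, 67.3, 15.5 and 7.84 CPM. Slpi, an inhibitor of neutrophil serine proteases, was lowest in precursors and highest in mature cells when the libraries were pooled, with 367, 1410.3, 1673 and 1534 CPM.

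Counted by library, 14 of the 27 members with 100 or more UMIs in neutrophil-like cells were higher in granule-rich than in mature cells of each of the 4 libraries, against 3.64% of all 5195 genes with that many UMIs. They were Anxa1, Camp, Cd177, Cyba, Cybb, Fpr2, Lcn2, Ltf, Lyz2, Mmp9, Ngp, Padi4, Pglyrp1 and Rac2. Olfm4 was lower in each, as were 25.3% of all genes, and only 0.775% of its 129 neutrophil-like UMIs lay in granule-rich cells. The granule-rich sums of the wtIDH1 libraries came from 6 and 3 cells and held only 15485 and 12209 UMIs. A single cell can therefore weigh heavily in these orders. A gene of low level can read 0 there, and it then counts as lower and cannot count as higher. The shares of 3.64% and 25.3% therefore depend on depth too. Between mature and activated cells 13 of the 27 were higher in the mature cells of each library, against 29.3% of all genes: Anxa1, Cebpd, Cebpe, Cyba, Itgb2, Lcn2, Mmp8, Mmp9, Ncf1, Ncf4, Padi4, Pglyrp1 and Rac2. Ltf alone was lower, as were 15.5% of all genes. The states are gated on the same cells, so these orders are descriptions with no test.

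A few cells carried nearly all the RNA of Ngp, Camp and Ltf. Of the 13167 kept cells, 20 had 10 or more UMIs of Ngp and Camp together, and all 20 were neutrophil-like (2 precursor, 17 granule-rich and 1 mature cell). The mIDH1 libraries held 2 and 15 of them and the wtIDH1 libraries 2 and 1. These 20 cells held 98.6% of the Ngp, 99.6% of the Camp and 90.2% of the Ltf UMIs of all 3335 neutrophil-like cells. Their shares of Lcn2, Cybb, Anxa1, Lyz2, Mmp8 and Mmp9 were lower, at 43.7, 42.3, 37.9, 32.3, 18.4 and 4.61%. The part of RNA of other cells in the Cybb and Lyz2 shares was not tested. The 20 cells had a median depth of 11326 UMIs, above the 2057 UMIs of the class, and a limit set in UMIs favours deep cells.

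Concentration differed as much between members as the state levels did. The 3 cells with the most Camp, the 4 with the most Ngp and the 5 with the most Ltf each held 50% or more of that gene's UMIs in neutrophil-like cells, against 36 cells for Lcn2, 46 for Mmp8, 251 for Mmp9, 284 for Slpi and 493 for Itgam. These counts of cells use each gene's own order of cells and no limit. Slpi, which played no part in choosing the 20 granule-laden cells, had 402 and 895 CPM in those cells and 1162 and 2024 CPM in the other neutrophil-like cells of the mIDH1 libraries. In the wtIDH1 libraries replicate 1 had the other order, with 884 CPM in its 2 granule-laden cells against 473 CPM in the others, while replicate 2 had 113 CPM in its 1 such cell against 511 CPM in the others. The granule-rich state was itself mixed, since 43 of its 71 cells had 0 UMIs of Ngp, Camp and Ltf, and AA467197, one of its marker genes, went against the list.

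**Figure D2:**
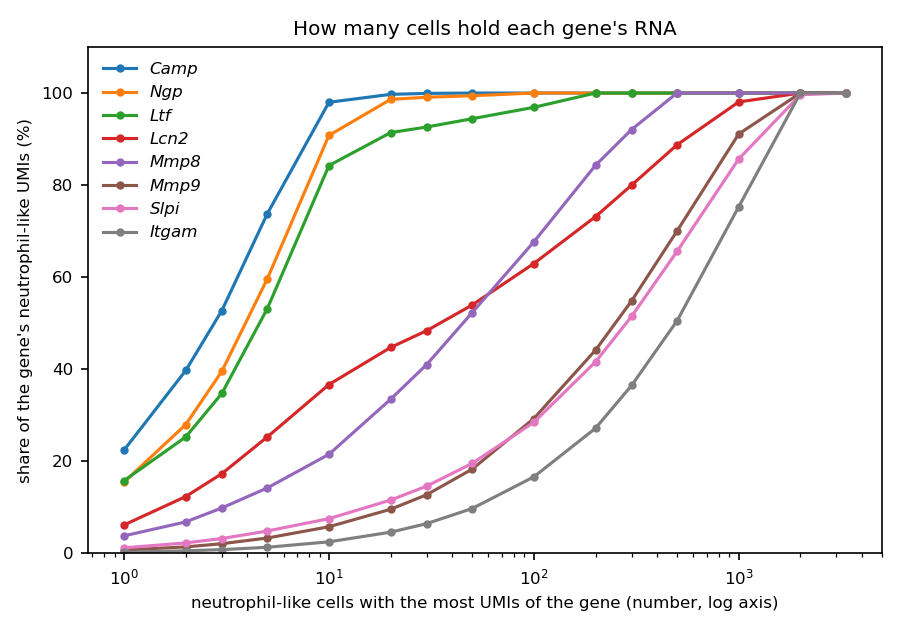
Cumulative percent of a gene's UMIs in neutrophil-like cells (y axis) held by the cells with most of it (x axis, number of cells, log scale). Ngp, Camp and Ltf reach over 90% within 20 cells, whereas Mmp9, Slpi and Itgam reach 50% only at 251, 284 and 493 cells.

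The precursor state divided by the same genes. Of its 9 cells, 2, both from mIDH1 libraries and with 24948 and 24122 UMIs, held Ngp, Camp and Ltf together with 14 UMIs of Elane, 61 of Prtn3, 51 of Fcnb, 10 of Ms4a3, 26 of Cebpe and 2 of Mpo. The other 7 (5 from mIDH1 and 2 from wtIDH1 libraries, 2171 to 8016 UMIs) held none of Ngp, Camp and Ltf. They had 1 UMI of Prtn3 and 1 of Cebpe, 173 UMIs of Apoe and 22 of C1qa, both macrophage genes. The precursor levels of Ngp, Camp, Ltf and the primary granule genes therefore rest on 2 cells of the mIDH1 libraries. Those 2 cells also held 50 of the 51 Cybb UMIs of the state.

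Primary granule genes were scarce. Bpi had 0 UMIs among 87413360, which allows up to 0.0343 CPM. Mpo, the gene of myeloperoxidase, had 11 UMIs in 9 cells, and Ctsg, the gene of cathepsin G, 13 UMIs in 11 cells, of which 53.8% lay in mast cell or basophil-like cells. Elane, the neutrophil elastase gene, had 46 UMIs in 13 cells, and 20 of them lay in 1 cell outside the neutrophil-like class. Ms4a3, a marker of granulocyte and monocyte progenitors, had 43 UMIs, and 44.2% of them lay in an unnamed cluster of 1067 cells led by Arg1, Fn1 and Lgals3. Fcnb, which encodes a ficolin, had 109 UMIs in 32 cells. Fcnb was read at 693 and 70.2 CPM in precursor and granule-rich cells and had 0 UMIs in mature and activated cells, which allows up to 0.848 and 0.840 CPM. All Fcnb UMIs of the neutrophil-like cells lay in the 20 granule-laden cells.

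Prtn3, the gene of proteinase 3, was the most abundant of the primary granule genes, and most of its UMIs lay outside neutrophil-like cells. It had 1121 UMIs in 506 cells, or 3.84% of kept cells, and only 9 of those 506 also held a UMI of Mpo, Elane or Ctsg. The cluster led by Arg1, Fn1 and Lgals3 held 376 of the UMIs (33.5%), macrophage-like cells 223, monocyte-like cells 126 and neutrophil-like cells 123. The share of cells with a Prtn3 UMI was 12.4% in that cluster (median depth 8926 UMIs), 9.70% in macrophage-like cells (12011 UMIs), 7.83% in monocyte-like cells (8036 UMIs) and 1.5% in neutrophil-like cells (2057 UMIs). It was 0.116% in T cell-like cells (4687 UMIs), and in NK cell-like cells (2880 UMIs) it was 0 of 700, which allows up to 0.429%. After each cell was thinned to 1000 UMIs, the share was 1.69% in the cluster, 0.606% in macrophage-like cells, 1.45% in monocyte-like cells, 0.645% in neutrophil-like cells and 0% in T cell-like cells. Prtn3 lies at chr10:79874476-79883174 on the plus strand of mm10, 3.07 kb before Elane, and overlaps Plppr3 on the other strand.

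Its promoter is shown because Prtn3 was read where Elane, its neighbour, was nearly absent. The window is chr10:79879417-79879716 (plus strand, RefSeq on GRCm38.p6), from 250 bases before to 50 after the RefSeq start, which lies 5.19 kb inside the gene as GENCODE draws it. The window held 0 matches to TTNNGNAA.
Prtn3: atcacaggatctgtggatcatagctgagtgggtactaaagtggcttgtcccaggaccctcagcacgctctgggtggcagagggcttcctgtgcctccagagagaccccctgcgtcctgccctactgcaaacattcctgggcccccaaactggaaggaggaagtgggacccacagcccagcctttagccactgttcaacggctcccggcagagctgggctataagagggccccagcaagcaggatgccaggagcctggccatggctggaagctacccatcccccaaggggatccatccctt

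Most of the 33 genes did not have over 50% of their pooled UMIs in neutrophil-like cells. Of the 32 members with a UMI, 11 had over 50% of their UMIs in neutrophil-like cells when the libraries were pooled, and 4 had over 90%: Ngp (99.4%), Camp (99.4%), Ltf (95.6%) and Lcn2 (91.7%). Another 11 had under 15% there. Neutrophil-like cells held only 7526782 of all 87413360 UMIs, so a share under 15% is by itself no sign of a low level in them. The shares of all genes past these limits were not counted. These shares move with the number of neutrophil-like cells: the members over 50% were 10 and 16 in the mIDH1 libraries, against 5 and 6 in the wtIDH1 libraries. Ltf, Camp, Ngp, Lcn2 and Olfm4 were over 50% in every library. Slpi had 51.4 and 63.1% of its UMIs in neutrophil-like cells of the mIDH1 libraries, against 6.79 and 23.8% in those of the wtIDH1 libraries. Mmp9 had 62.7 and 82.7% there in the mIDH1 libraries, against 18.9 and 26.7% in the wtIDH1 libraries. The percentages that follow are pooled too. Lyz2 had 39.8%, Cybb 27.8% and Cyba 26.0% of their UMIs in macrophage-like cells, against 1.37, 1.60 and 5.57% in neutrophil-like cells. Rac2 had 32.3% and Pglyrp1 28.2% in T cell-like cells, and Mmp25 had 45.4% in cells like mature dendritic cells, at 130.4 and 134 CPM in the mIDH1 and 134 and 160.1 CPM in the wtIDH1 libraries. Anxa1 had 37.3% in an unnamed cluster of 245 very deep cells led by Nras, Rhox5 and Npm1. The cluster led by Arg1, Fn1 and Lgals3 held 41.6% of Adam8, 32.6% of Mmp8 and 25.6% of Slpi.

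**Figure D3:**
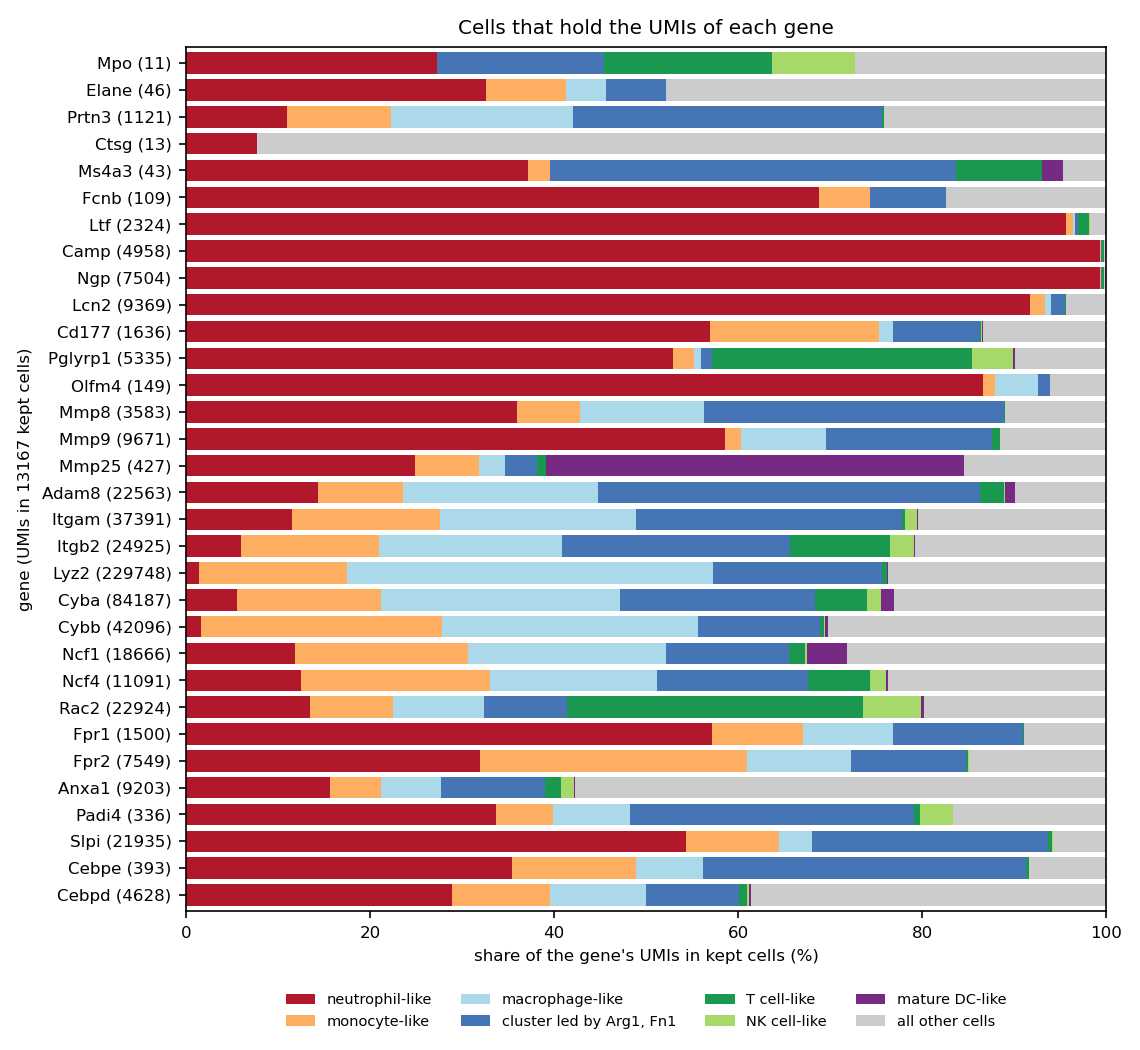
Percent of each member's UMIs (x axis) by the class or cluster that held them, with 1 bar per gene, the neutrophil-like share first and the gene's UMIs beside its name. Ngp, Camp, Ltf and Lcn2 lie above 90% in neutrophil-like cells, and Lyz2, Cybb and Cyba below 6%.

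Stray neutrophil RNA in other classes was measured in T cell-like cells, which do not make lactoferrin, cathelicidin or calprotectin. The neutrophil marker S100a8 stood there at 0.45 and 0.18% of the neutrophil-like level of the same library in the mIDH1 libraries and at 0.09 and 0.07% in the wtIDH1 libraries. Ngp stood at 0.39 and 0.25% in the mIDH1 libraries and 0.02 and 0% in the wtIDH1 libraries, and Camp at 0.34 and 0.39% in the mIDH1 and 0.05 and 0% in the wtIDH1 libraries. Lcn2 stood at 0.21 and 0.11% in the mIDH1 libraries and 0.17 and 0% in the wtIDH1 libraries. All 3 genes stayed, like S100a8, below 0.5% in every library. Ltf stood higher, at 1.68 and 0.38% in the mIDH1 and 0.71 and 0.13% in the wtIDH1 libraries, and Slpi reached 2.03% in mIDH1 replicate 1.

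Other members went far beyond that ratio in T cell-like cells. Rac2, which haematopoietic cells of many kinds express, stood at 229 and 159% of the neutrophil-like level in the mIDH1 libraries and at 154 and 162% in the wtIDH1 libraries. Itgb2, the shared beta chain of leukocyte integrins, stood at 141 and 129% in the mIDH1 and 141 and 94.4% in the wtIDH1 libraries. Pglyrp1 stood at 86.2 and 40.3% in the mIDH1 and 26.9 and 28.0% in the wtIDH1 libraries. Lyz2 in T cell-like cells differed by library, with 40.5 and 535 CPM in the mIDH1 and 26.0 and 40.6 CPM in the wtIDH1 libraries, so that mIDH1 replicate 2 stood apart. In NK cell-like cells Lyz2 had 57.3 and 96.6 CPM in the mIDH1 libraries, against 48.2 and 57.2 CPM in the wtIDH1 libraries.

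**Figure D4:**
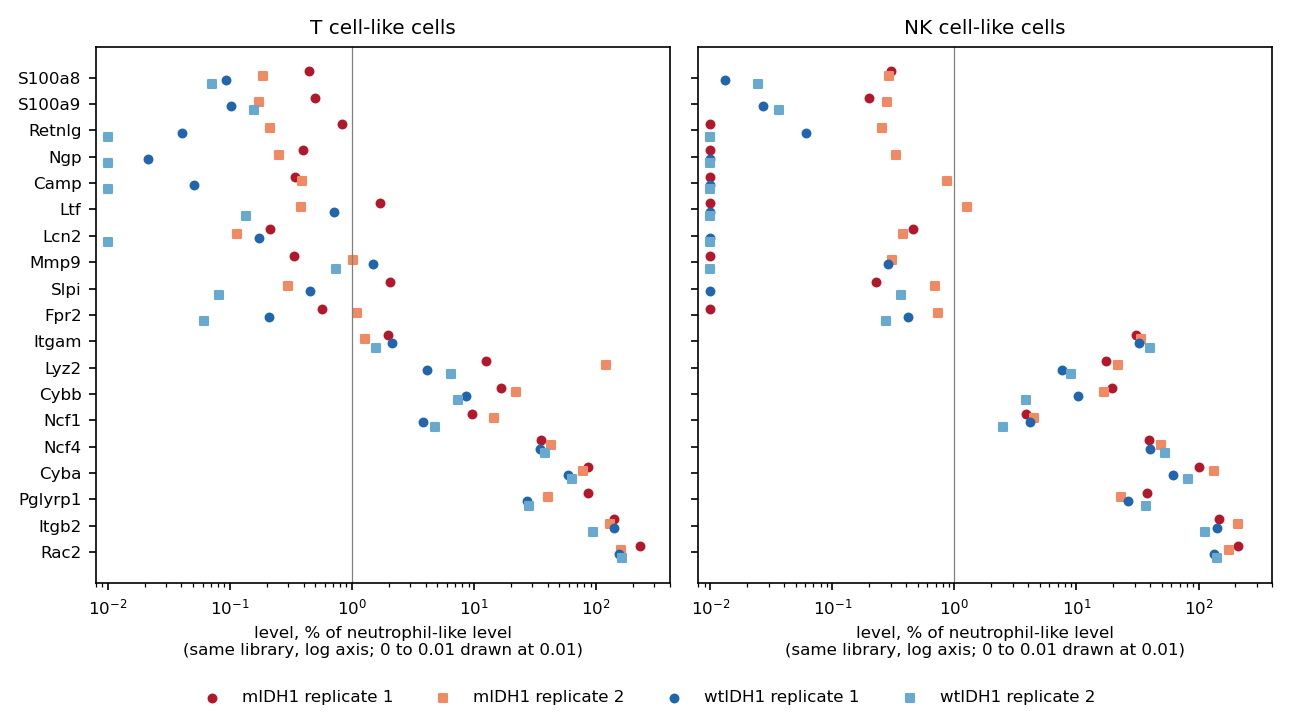
Level in T cell-like (left) and NK cell-like cells (right) as a percent of the neutrophil-like level of the same library (x axis, log scale, values from 0 to 0.01 drawn at 0.01), with 1 point per library. In T cell-like cells Ngp, Camp and Lcn2 lie beside S100a8 below 0.5%, while Rac2 lies above 100% in all 4 libraries.

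The genotypes were compared by summing UMIs per library and class and testing mIDH1 against wtIDH1 with edgeR's quasi-likelihood test, adjusted over all genes by Benjamini-Hochberg. The smallest two-sided exact permutation p that 2 mIDH1 and 2 wtIDH1 libraries allow is 0.333, and the adjusted p-values below therefore depend on edgeR's model of the variance. Log2 fold changes are mIDH1 over wtIDH1, with the standard error (SE).

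In neutrophil-like cells as a whole, none of the 28 members tested passed an adjusted p of 0.05 in edgeR, where 0.267% of 7495 genes did (0.187% higher and 0.0801% lower). At an unadjusted p under 0.05 there were 6 of 28 members and 1259 of 7495 genes. In simulated data the test found 43.9% of 4-fold changes in this class, against 92.4% in monocyte-like cells. DESeq2 called 1 member, Slpi, and 1.95% of all genes. Without mIDH1 replicate 1 edgeR called 9 members and 16.3% of all genes, and without mIDH1 replicate 2 it called 6 members and 6.03% of all genes. Slpi came nearest in edgeR, with 1152 and 1978 CPM in the mIDH1 libraries and 488 and 501 CPM in the wtIDH1 libraries (log2 fold change 2.19, SE 0.44, edgeR adjusted p = 0.0526). Without mIDH1 replicate 2 the Slpi value was 1.41. Lcn2 had 1439 of 2528887 and 6801 of 4399231 UMIs in the mIDH1 libraries. In the wtIDH1 libraries it had 152 of 239666 and 201 of 358998 UMIs, so the genotypes overlapped. Its log2 fold change ranged between 0.12 and 2.03 without each library in turn. The median log2 fold change was 0.33 over the members and -0.01 over all genes. It did not keep its sign: over the members it was -0.30 without mIDH1 replicate 2, 0.62 without mIDH1 replicate 1 and -0.18 with library totals as the only scaling, where all genes had -0.43. Ngp had 488 and 1185 CPM in the mIDH1 libraries, against 1739.9 and 1660.2 CPM in the wtIDH1 libraries, and its fitted log2 fold change was -0.45 (SE 0.48). Without precursor and granule-rich cells the Ngp value was 0.88, and without mIDH1 replicate 1 it was 0.14. Camp (-0.16) took 0.64 without mIDH1 replicate 1 and 0.24 without wtIDH1 replicate 2, and Ltf (-0.62) took 0.16 without precursor and granule-rich cells. Cybb had 67.2 and 82.7 CPM in the mIDH1 libraries and 225 and 239.6 CPM in the wtIDH1 libraries (-1.14, SE 0.34, edgeR adjusted p = 0.121). RNA of other cells, estimated from macrophage and T cell genes, was 21.7 and 9.90% of the UMIs of mIDH1 neutrophil-like cells, against 44.0 and 30.9% in the wtIDH1 ones. After it was subtracted, edgeR called 0 of 5703 genes, with 735 at an unadjusted p under 0.05. Slpi then had 1.74 (SE 0.42, edgeR adjusted p = 0.227). The Cybb value was 0.18 with an SE of 1.77, too wide to give a direction. The median was 0.04 over the members and 0.09 over all genes.

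Mature cells alone gave 1 call among 22 members tested, where 1.72% of 5577 genes were called (1.15% higher and 0.574% lower). Slpi rose, with 1117 and 2134 CPM in mIDH1 mature cells and 515 and 465 CPM in wtIDH1 ones (log2 fold change 2.23, SE 0.43, edgeR adjusted p = 0.0368). Lcn2 was next, with the levels given above and 2.03 (SE 0.49, edgeR adjusted p = 0.0551). Without mIDH1 replicate 2 the values were 1.41 for Slpi and 0.95 for Lcn2. An unadjusted p under 0.05 was found for 11 of the 22 members and for 1138 of 5577 genes. Beside Slpi and Lcn2, these were another 9 members. Of these, Cd177 (1.71), Anxa1 (1.46), Fpr1 (1.29), Pglyrp1 (0.99), Rac2 (0.77), Adam8 (0.70) and Itgb2 (0.66) had positive values, and Cybb (-0.84) and Ncf1 (-0.73) negative ones. The call count depended on the libraries, with 11 members (and 16% of all genes) called without mIDH1 replicate 1, 3 (1.69% of all genes) when wtIDH1 replicate 1 was left out and 2 (0.948%) when wtIDH1 replicate 2 was. Slpi kept its sign but was not among those 2, which were Cd177 and Fpr1. RNA of other cells was unequal between the genotypes, as given above, and its part in the values of mature cells was not tested.

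In activated cells 2 of 22 members rose, where 1.05% of 5802 genes were called (0.672% higher and 0.379% lower). Lcn2 stood at 209 and 470.4 CPM in mIDH1 activated cells against 131 and 53.9 CPM in wtIDH1 ones (2.39, SE 0.52, edgeR adjusted p = 0.00779). Slpi stood at 1194 and 1887 CPM in mIDH1 activated cells against 407 and 619 CPM in wtIDH1 ones (1.93, SE 0.44, edgeR adjusted p = 0.0119). For both genes the mIDH1 libraries lay above the wtIDH1 libraries with no overlap, but the share of all genes without overlap was not counted. Without mIDH1 replicate 2 the values were 1.34 for Lcn2 and 1.26 for Slpi. The wtIDH1 libraries held 39 and 75 activated cells, no member was called without mIDH1 replicate 2 or without wtIDH1 replicate 2, and Lcn2 alone was called without wtIDH1 replicate 1. The part of the unequal RNA of other cells in the values of activated cells was not tested either. Granule-rich cells were not tested, because the wtIDH1 libraries held only 6 and 3 of them.

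**Figure D5:**
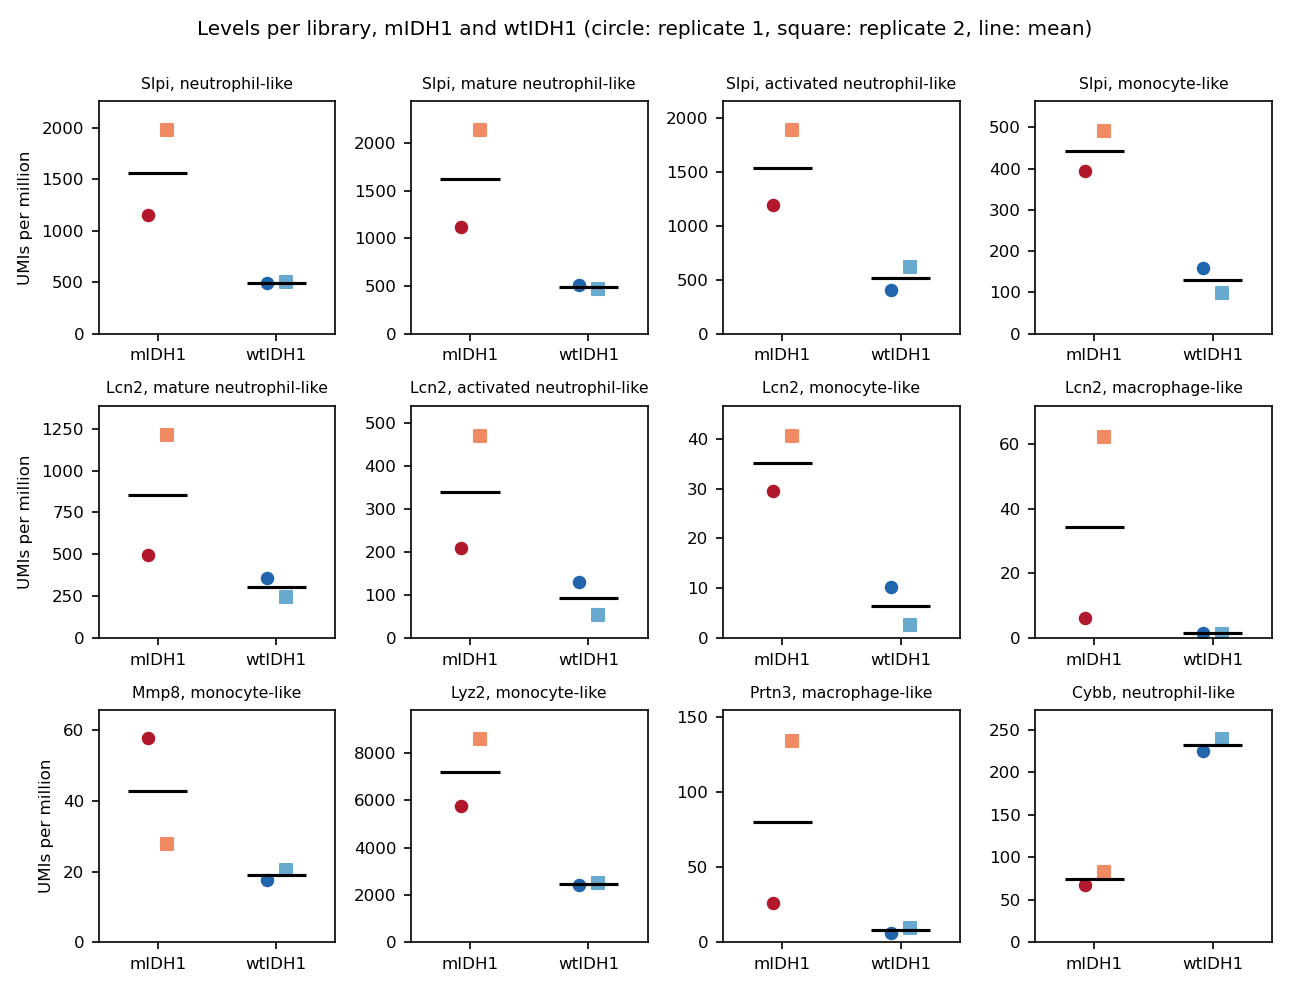
Level per library (y axis, UMIs per 1e+06, from 0) of members in the classes named above each panel, mIDH1 left of wtIDH1, with a line at the mean of 2 libraries. Slpi and Lcn2 lie higher in both mIDH1 libraries in every panel that shows them. Lcn2 in neutrophil-like cells as a whole is not drawn, and there its genotypes overlap. Cybb lies lower in neutrophil-like cells, with 67.2 and 82.7 CPM in mIDH1 and 225 and 239.6 CPM in wtIDH1.

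In monocyte-like cells 9 of 21 members rose in mIDH1 and 0 fell, where 8.64% of 8272 genes rose and 4.4% fell (13% in all). They were Lcn2 (2.39, SE 0.38), Slpi (1.99, SE 0.25), Pglyrp1 (1.96, SE 0.41), Lyz2 (1.79, SE 0.27), Mmp8 (1.39, SE 0.29), Anxa1 (1.17, SE 0.22), Adam8 (0.87, SE 0.21), Cyba (0.86, SE 0.24) and Itgb2 (0.73, SE 0.21), with edgeR adjusted p between 0.000115 for Slpi and 0.033 for Itgb2. Slpi had 394 and 493 CPM in the mIDH1 libraries, against 159 and 99.5 CPM in the wtIDH1 libraries. Lyz2 had 5779.8 and 8615 CPM in the mIDH1 libraries, against 2432 and 2498 CPM in the wtIDH1 libraries. In all 9 the genotypes did not overlap, but the share of all genes without overlap was not counted, so this adds nothing to the calls. Neutrophil RNA moved the same way in these cells, since S100a8 stood at 1020.4 and 1709 CPM in the mIDH1 libraries, against 165 and 102 CPM in the wtIDH1 libraries. After the neutrophil profile was subtracted (5.05 and 3.28% of UMIs in mIDH1, 0.979 and 0.564% in wtIDH1), 7 of the 9 were still called. Pglyrp1 then had 1.60 (SE 0.68, edgeR adjusted p = 0.143), and Lcn2 had too few UMIs left to be tested. Without wtIDH1 replicate 1 the values were 3.93 for Lcn2 and 3.66 for Pglyrp1, and without mIDH1 replicate 1 that of Mmp8 was 0.89.

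In macrophage-like cells 3 of 18 members rose, where 2.52% of 9932 genes were called (2.02% higher and 0.493% lower). Prtn3 had 26.2 and 134 CPM in the mIDH1 libraries and 6.32 and 9.54 CPM in the wtIDH1 libraries (3.42, SE 0.64, edgeR adjusted p = 0.0289). Lcn2 had 6.25 and 62.4 CPM in the mIDH1 libraries, against 1.58 and 1.36 CPM in the wtIDH1 libraries (4.52, SE 0.94, edgeR adjusted p = 0.0407). Anxa1 had 64.3 and 78.0 CPM in the mIDH1 libraries, against 46.0 and 33.5 CPM in the wtIDH1 libraries (1.08, SE 0.24, edgeR adjusted p = 0.0469). S100a8 moved with them, at 333 and 2239 CPM in the mIDH1 libraries and 129 and 93.6 CPM in the wtIDH1 libraries. With the neutrophil profile subtracted, Prtn3 had 3.43 (SE 0.65, edgeR adjusted p = 0.0342) and was called, Anxa1 had 1.03 (SE 0.23, edgeR adjusted p = 0.0575) and Lcn2 was below the filter on low counts. With likely doublets kept no member was called, although Prtn3 had 3.30 (SE 0.65, edgeR adjusted p = 0.0658) and Anxa1 1.06 (SE 0.27, edgeR adjusted p = 0.103), and Lcn2 was again not tested. Without mIDH1 replicate 2 Prtn3 alone was called, at 1.89, and the Lcn2 value was 2.26. There were 7 members and 5.6% of all genes called without mIDH1 replicate 1, and 8 members and 4.02% of all genes without wtIDH1 replicate 1. Mmp9 had 40.6 and 34.3 CPM in the mIDH1 libraries, against 18.4 and 108 CPM in the wtIDH1 libraries (-0.48, SE 0.66). It was called lower without wtIDH1 replicate 1 (-1.24) and higher without wtIDH1 replicate 2 (1.29), so it has no direction here. The class was small in mIDH1, with 102 and 40 cells against 364 and 484 cells in wtIDH1. The unnamed cluster led by Arg1, Fn1 and Lgals3, with 473 and 356 cells in mIDH1 and 114 and 124 in wtIDH1, was not tested. Prtn3 had 250 of 5829035 and 89 of 3587136 UMIs there in the mIDH1 libraries. In the wtIDH1 libraries it had 12 of 1147078 and 25 of 1101568 UMIs there.

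An interaction fit, with the library as a block, asked whether the genotype difference itself differed between the neutrophil-like and the macrophage-like class. The difference was lower in neutrophil-like cells for 3 of 28 members, where it was lower for 0.51% and higher for 0.592% of 9799 genes, 1.1% in all: Lcn2 (-2.83, SE 0.52, edgeR adjusted p = 0.00206), Lyz2 (-1.73, SE 0.38, edgeR adjusted p = 0.0126) and Cybb (-1.49, SE 0.37, edgeR adjusted p = 0.0309). The median of all genes in this fit was 0.23, so each value lies further below the median gene than below 0. The count was 5 without mIDH1 replicate 1 (2.99% of all genes) and 5 without mIDH1 replicate 2 (1.94%), against 1 when wtIDH1 replicate 1 was left out and 0 when wtIDH1 replicate 2 was. Lyz2 had 326 and 444 CPM in mIDH1 neutrophil-like cells and 638 and 629.5 CPM in wtIDH1 ones, while in macrophage-like cells it had 9363 and 20843 CPM in mIDH1 and 4897 and 5789 CPM in wtIDH1.

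Another 34 genes of granule biogenesis, granule cargo and oxidase function were read for context. In mature cells 0 of 25 rose and 2 fell: Cat, the catalase gene (-2.92, SE 0.60, from 3 and 5 UMIs in the mIDH1 and 3 and 8 in the wtIDH1 libraries), and Ctsc (-1.58, SE 0.28), whose product activates granule serine proteases. Ctsc had 80.7 and 64.8 CPM in mIDH1 mature cells, against 290 and 291 CPM in wtIDH1 ones, and macrophage-like cells held it at 1704 and 1226 CPM in the mIDH1 and 1355 and 1731 CPM in the wtIDH1 libraries. Cat stood at 33.1 and 21.8 CPM in mIDH1 and 47.6 and 58.1 CPM in wtIDH1 macrophage-like cells. The unequal RNA of other cells given above moved with both values, and its part in them was not tested in mature cells. In activated cells 0 of 23 and in all neutrophil-like cells 0 of 28 passed in edgeR. In monocyte-like cells 6 of 26 rose, namely Hp (haptoglobin, 1.66), Sod2 (1.51), Srgn (serglycin, the granule proteoglycan, 1.45), Rac1 (0.80), Slc11a1 (0.72) and Cfp (0.68), and 2 fell, namely the proton channel gene Hvcn1 (-1.03) and Cebpa (-0.83). In macrophage-like cells Sod2 (1.33) and Srgn (1.24) rose among 28 tested and Gfi1 fell. Gfi1, a transcriptional repressor of granulocyte development, had 0 UMIs in both mIDH1 libraries and 108 in the wtIDH1 libraries, which is at least 6.92-fold lower against a floor of 3 counts over the group. In the test of the difference between classes, Hp was lower in neutrophil-like cells (-1.45) and 0 of 29 were higher.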

How the data were processed

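Single-cell RNA of 4 libraries was measured, 2 mIDH1 and 2 wtIDH1. The deposited values are raw UMI counts per gene and barcode, made with Cell Ranger 3.1 on mm10 by the authors, per the labels' protocols, although the file headers name software version 3.0.0. The protocols also describe scaling to equal depth, whereas the matrices used here were separate and of unequal depth (29849183 and 20908476 UMIs in mIDH1, 23695857 and 22908011 in wtIDH1).

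Barcodes with under 200 genes (326 in all) or over 10% mitochondrial UMIs (2394), and the highest Scrublet doublet scores at 0.8% per 1000 cells (402), were left out, since the automatic doublet threshold called under 0.5%. Without the 15 members among them, 1985 variable genes, 30 components and 15 neighbours gave Leiden clusters (resolution 1), named from marker lists. The limits of the neutrophil gates were chosen with the scores in view. The members and all lists were chosen with earlier results of these data known.

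Sums per library and class were tested with edgeR 4.0.16 (TMM, filterByExpr, threshold 0.05) in R 4.3.3, where every library held 20 or more cells of the class. DESeq2 1.42.0, other scalings, filters and left-out libraries were alternatives. Stray RNA was subtracted in proportion to S100a8, S100a9 and Retnlg, or to C1qa, C1qb, C1qc, Cd3e, Cd3g and Trac. Any member may be named, and of the other pathway genes the called ones. The test was checked on simulated data. Of 4-fold changes it found 43.9% in neutrophil-like, 71.2% in mature, 50% in activated, 84.9% in macrophage-like and 92.4% in monocyte-like cells. For the difference between classes it found 36.4%. Of 2-fold changes it found 4.48, 11.9, 1.49, 38.8, 55.2 and 2.99% in the same order. Counts of calls are therefore not comparable between classes. Intervals and limits for a count of 0 (3 counts) cover counting error only. Clustering used scanpy 1.11.5 and igraph 0.11.9 in Python 3.11.15. Gene positions are from GENCODE M21.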

Additional observations from a re-analysis of the deposited data

Results flagged for a closer look

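The mIDH1 effect differed between neutrophil-like and macrophage-like cells, by the interaction test in edgeR, for Lcn2 (-2.83), Lyz2 (-1.73) and Cybb (-1.49), each lower in neutrophil-like cells. Levels of stray neutrophil RNA in macrophage-like cells (1.41 and 4.60% of UMIs in mIDH1, 0.678 and 0.533% in wtIDH1) and of other RNA in neutrophil-like cells (21.7 and 9.90% in mIDH1, 44.0 and 30.9% in wtIDH1) moved with these differences, and their part in them was not tested in the interaction fit.

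Barcodes left out for over 10% mitochondrial UMIs, 2394 in all, held 141 Ngp UMIs, a signal outside the cells analysed. Ngp stood there at 73.3 and 9.28 CPM in the mIDH1 libraries and at 0 and 0 CPM in the wtIDH1 libraries, and 1 of these barcodes, in mIDH1 replicate 1, had 10 or more Ngp and Camp UMIs.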

How the results depend on the processing

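The number of members called in neutrophil-like cells (0 as reported) was 1 with DESeq2 size factors, 6 with library totals, 1 with DESeq2, 2 with no filter, 2 at the 5% mitochondrial limit, 1 in mature and activated cells only (an alternative chosen after the data were seen) and 0 to 9 without each library in turn (9 without mIDH1 replicate 1, 6 without mIDH1 replicate 2). In mature cells (1 as reported) it was 3 with library totals, 2 with DESeq2, 6 with no filter, 3 at the 5% limit, 3 without cells near the gate (also chosen later) and 1 to 11 without each library. In activated cells (2) it was 1 without cells near the gate and 0 to 2 without each library. In macrophage-like cells (3) it was 5 with DESeq2, 8 with no filter, 5 at the 5% limit, 0 with doublets kept, 1 with members kept in the clustering, 1 after neutrophil RNA was subtracted (Lcn2 was not tested under these 3 settings) and 1 to 8 without each library, with 7 without mIDH1 replicate 1 and 8 without wtIDH1 replicate 1. In monocyte-like cells (9) it was 6 to 13 without each library. For the difference between classes (3) it was 1 with members kept in the clustering and 0 to 5 without each library. The share of all genes called moved as well. In neutrophil-like cells it was 0.267% as reported, 3.8% with library totals, 1.95% with DESeq2, 2.47% with no filter and 1.46% at the 5% limit. In macrophage-like cells it was 2.52% as reported, 6% with no filter, 5.23% at the 5% limit and 0.77% with doublets kept. In monocyte-like cells it was 13% as reported and 5.1% at the 5% limit. The counts of members are thus no result about the members alone. The cause of these shifts was not tested.

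Signs reversed in neutrophil-like cells for Ngp (0.14 without mIDH1 replicate 1, 0.88 in mature and activated cells only), Camp (0.64 without mIDH1 replicate 1, 0.24 without wtIDH1 replicate 2), Ltf (0.16 in mature and activated cells only) and Cybb (0.18, SE 1.77, with RNA of other cells subtracted), and in macrophage-like cells for Mmp9 (1.29 without wtIDH1 replicate 2, 0.11 with the replicate block). Without each library in turn Ngp ranged between -1.61 and 0.14, Camp between -2.51 and 0.64 and Mmp9 between -1.24 and 1.29. Single genes were followed under the alternatives for some members only. Of the 335 values of these genes or of shares, 263 kept direction and side of the threshold, 36 lost the call and 28 gained one. With a granule-rich limit of 0.75 or 1.5 that state held 72.0 or 68.2% of neutrophil-like Ngp UMIs, against 71.8%.

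Library totals as the only scaling moved the median log2 fold change of all genes to -0.43 in neutrophil-like, -0.44 in mature, -0.20 in activated, -0.27 in macrophage-like and -0.26 in monocyte-like cells, and of the class difference to -0.13. The share of called genes that were higher, with signs taken against 0 and not against those medians, moved too. With library totals it was 21.8, 21.8, 45.3, 45.1 and 29.8%, against 70, 66.7, 63.9, 80.4 and 66.3% as reported. For the difference it was 22.1 against 53.7% (36.6% with DESeq2 size factors). The genes called in neutrophil-like cells were 20 as reported, 285 with library totals, 146 with DESeq2, 366 with no filter, 95 at the 5% limit, 6 with doublets kept, 0 with other RNA subtracted and 80 in mature and activated cells only. In mature cells they were 96, 362 with library totals, 378 with no filter and 256 without cells near the gate. In activated cells they were 61, 27 with DESeq2 and 27 without cells near the gate. In macrophage-like cells they were 250, 162 with library totals, 902 with no filter, 508 at the 5% limit and 76 with doublets kept. In monocyte-like cells they were 1079, 689 with DESeq2 and 475 at the 5% limit. For the difference they were 108, 163 with library totals and 68 with members kept in the clustering.

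Same-numbered libraries did not deviate together (correlations -0.04, -0.01, -0.03, -0.04 and 0.02), so the numbers do not pair them. With the replicate block the members called were 2 in neutrophil-like, 2 in mature, 2 in activated, 8 in macrophage-like and 10 in monocyte-like cells. The genes called were 202, 131, 62, 728 and 1322 in the same order. The alternatives for granule-rich cells were not run, since that comparison had too few cells. Neutrophil-like cells had a median of 2057 UMIs and numbered 118 and 212 in wtIDH1, and the part of this in the number of calls was not tested.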
